A study of Homo sapiens with 8 samples.

Results

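The genes described here encode the secreted and membrane-bound metalloproteases of the extracellular matrix and their inhibitors. They were taken by gene symbol: 23 matrix metalloproteases (MMP), 19 members of the ADAMTS family, 5 ADAMTS-like genes (ADAMTSL) and the 4 tissue inhibitors of metalloproteases (TIMP). This gave 51 genes, measured by 73 probes, of 21524 genes in all. They were measured on 8 one-colour Agilent arrays of NGP, an established human neuroblastoma line. In 4 arrays the cells are labelled as carrying CFC1 cDNA, and in 4 as carrying a mock construct; both were delivered by lentivirus and followed by puromycin selection. CFC1 encodes a co-receptor for Nodal, a ligand of the TGF-beta family. Whether a group is a clone or a pool, and whether its 4 samples were separate cultures, is not given in the sources used here, so the p-values measure a spread that may be technical.

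MMPs are zinc proteases that are made as inactive precursors and cleave collagens, gelatin and many other matrix and cell-surface proteins. ADAMTS proteases carry thrombospondin repeats that tie them to the matrix, and they trim procollagens, proteoglycans and microfibril proteins; ADAMTS-like proteins share those repeats but lack the protease domain. TIMPs bind the active site of MMPs and, for TIMP3, of several ADAMTS proteases. In neuroblastoma these genes are studied for invasion and for exchange between tumour cells and stroma.

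Each value was read as a log2 value set against an unstated baseline of its probe, so it compares arrays for a gene and gives no level. Where several probes shared a gene, their values were averaged. Differences are the arrays labelled CFC1 minus the mock arrays, on the log2 scale. A gene was called when its Benjamini-Hochberg adjusted p in limma, over all 21524 genes, was under 0.05. CFC1 itself does not bear out the label: its probe averaged -0.38 ± 0.335 in arrays labelled CFC1 and 0.42 ± 0.503 in mock arrays (SD, n = 4 each), a difference of -0.80 with an adjusted p of 0.0398 in limma and p = 0.0571 in an exact two-sided permutation test, whose smallest possible p is 0.0286. That call was lost under most alternatives, and whether the probe lies within the transduced cDNA was not determined. All directions below therefore rest on the array labels. The groups differed widely: 57.9% of all genes were called, 29.7% higher and 28.2% lower, and the median difference was -0.086. That split depends on the scaling: 6660 genes were higher and 4329 lower after quantile normalization, and 7052 higher and 4896 lower with the E1A control spots. Spots that bind no transcript, the DarkCorner and 3xSLv1 negative controls, differed by -0.11 and -0.15 between the groups. Small differences are to be held against this size, which rests largely on mock replicate 4. There the spots stood at 0.21 and 0.24, and on the other mock arrays between -0.23 and -0.11.

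Most called proteases were lower in the arrays labelled CFC1, with ADAMTS5 and ADAMTS13 called higher, and the 3 called inhibitors were higher. Of the 51 genes, 6 were called higher and 21 lower, which is 11.8% and 41.2%, beside 29.7% and 28.2% of all genes. The called share as a whole, 52.9%, lay near the 57.9% of all genes. The median difference over the 51 genes was -0.35. A called difference of at least 1 was found for 14 genes (27.5%, beside 18.7% of all genes), 3 higher and 11 lower (9.71% and 8.97% of all genes). The groups did not overlap in 27 genes, or 52.9%, against 56.5% of all genes. The MMP family had 10 genes lower, 0 higher and 13 not called, with a median of -0.41. The ADAMTS family had 9 lower, 2 higher and 8 not called, with a median of -0.37. ADAMTS-like genes had 2 lower, 1 higher and 2 not called, and TIMPs 3 higher and 1 not called. By RefSeq, ADAMTS2, ADAMTS6 and ADAMTS19 lie on chromosome 5, ADAMTS4 on 1, ADAMTS9 on 3, ADAMTS3 on 4, MMP16 on 8, ADAMTS14 on 10, ADAMTSL3 on 15, MMP28 and TIMP2 on 17, ADAMTS10 on 19, ADAMTS5 on 21, MMP11 and TIMP3 on 22, and TIMP1 on X. The plot of all differences shows the 51 genes with their intervals.

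**Figure D1:**
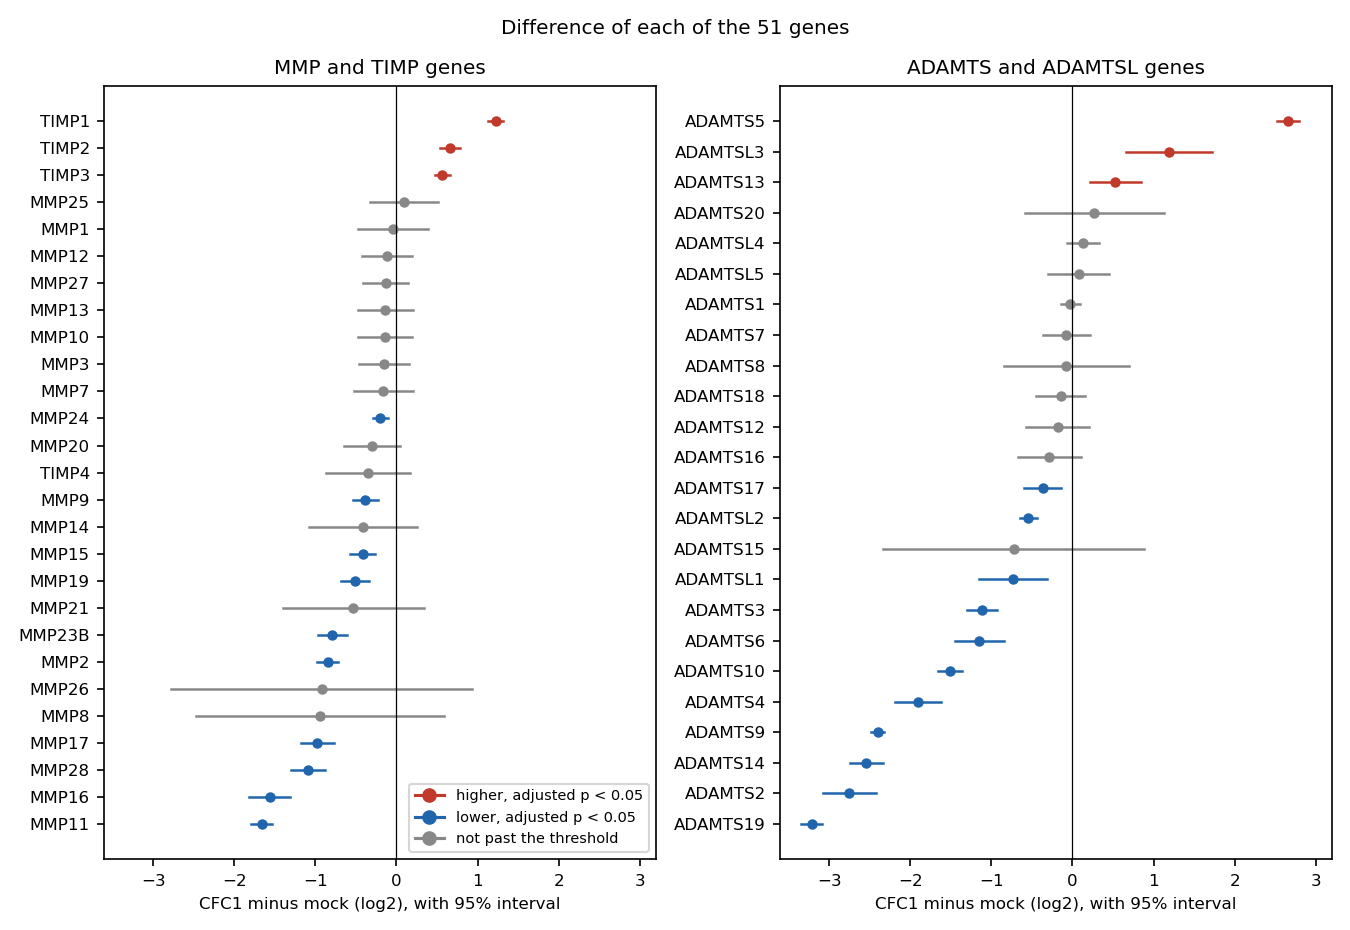
Difference of each gene in arrays labelled CFC1 minus mock arrays (x axis, log2) with its 95% interval from limma (n = 4 each), MMP and TIMP genes on the left and ADAMTS and ADAMTSL genes on the right. Red marks genes called higher, blue genes called lower and grey genes not called; differences run from -3.22 for ADAMTS19 to 2.66 for ADAMTS5, and TIMP1, TIMP2 and TIMP3 head the left panel.

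Promoters are shown for 6 genes: 3 of the genes with the largest falls, the inhibitor with the largest rise, and 2 MMP genes of chromosome 11 whose values followed the negative controls. RefSeq promoters (build GRCh38.p14) were matched for 32 of the 51 genes. Each line gives the 250 bases before the annotated start, 5′ to 3′ on the strand of the gene. Capitals mark 3 motifs. The GC box was searched as GGGCGG on both strands. The TATA box was searched on the strand of the gene only, as TATAAA. The AP-1 site was searched on both strands, as TGAGTCA. Different motifs share no bases here, but GC boxes share bases with each other in the ADAMTS14 and ADAMTS2 windows, where a run of capitals can hold more than 1.
ADAMTS19, chr5:129460048-129460297, plus strand: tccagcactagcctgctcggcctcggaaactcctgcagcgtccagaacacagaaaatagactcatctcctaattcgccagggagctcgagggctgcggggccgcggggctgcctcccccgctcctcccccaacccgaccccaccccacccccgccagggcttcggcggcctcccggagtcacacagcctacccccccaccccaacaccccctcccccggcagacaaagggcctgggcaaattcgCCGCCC
ADAMTS14, chr10:70672256-70672505, plus strand: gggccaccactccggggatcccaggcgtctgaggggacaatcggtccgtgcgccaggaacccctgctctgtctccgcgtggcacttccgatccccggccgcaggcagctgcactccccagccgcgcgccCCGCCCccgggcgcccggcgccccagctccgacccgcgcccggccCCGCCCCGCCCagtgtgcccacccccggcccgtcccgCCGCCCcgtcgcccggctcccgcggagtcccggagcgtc
ADAMTS2, chr5:179345462-179345711, minus strand: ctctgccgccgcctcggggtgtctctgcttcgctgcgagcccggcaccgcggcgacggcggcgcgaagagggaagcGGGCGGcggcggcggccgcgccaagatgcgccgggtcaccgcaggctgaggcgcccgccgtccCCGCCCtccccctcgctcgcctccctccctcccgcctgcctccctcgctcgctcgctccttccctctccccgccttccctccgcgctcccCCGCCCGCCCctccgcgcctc
TIMP1, chrX:47582186-47582435, plus strand: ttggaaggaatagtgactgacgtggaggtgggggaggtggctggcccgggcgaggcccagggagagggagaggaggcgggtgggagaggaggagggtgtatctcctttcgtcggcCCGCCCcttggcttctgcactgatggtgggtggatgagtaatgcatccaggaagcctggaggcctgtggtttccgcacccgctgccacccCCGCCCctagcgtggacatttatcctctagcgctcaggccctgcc
MMP7, chr11:102530748-102530997, minus strand: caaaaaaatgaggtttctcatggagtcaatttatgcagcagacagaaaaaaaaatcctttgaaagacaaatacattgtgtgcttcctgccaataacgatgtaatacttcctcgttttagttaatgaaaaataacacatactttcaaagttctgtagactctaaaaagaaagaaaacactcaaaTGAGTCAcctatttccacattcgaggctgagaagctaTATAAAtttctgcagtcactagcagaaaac
MMP10, chr11:102780629-102780878, minus strand: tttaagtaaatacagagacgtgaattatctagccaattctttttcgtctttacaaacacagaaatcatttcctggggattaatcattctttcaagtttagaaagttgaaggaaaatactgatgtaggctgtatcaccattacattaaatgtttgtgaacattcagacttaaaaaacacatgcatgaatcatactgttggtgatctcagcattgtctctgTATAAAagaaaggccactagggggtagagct
The ADAMTS19, ADAMTS14, ADAMTS2 and TIMP1 windows hold GC boxes and are rich in G and C (69.2%, 80.4%, 80.0% and 64.8%). The MMP7 and MMP10 windows hold 33.6% and 34.4% G and C, no GC box, and a TATA box that begins at position -30 and -31. MMP7 also holds an AP-1 site at position -67, the 1 such site in the 32 windows (3.12%, beside 4.16% of 27305 promoters of the same length).

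Over the 32 windows, 15 of 17 called genes (88.2%) and 8 of 15 genes not called (53.3%) held a GC box, beside 42.3% of all promoters. A TATA box was found in 1 of the 17 called genes, 6 of the 15 not called and 7.17% of all promoters. The median G and C content was 73.6% for called genes, 60.0% for genes not called and 58.0% for all promoters. Of the genes of the chromosome 11 MMP cluster, 5 had a window, and their G and C content lay between 32.8% and 41.6%. None of these 5 was called, and they held 0 GC boxes and 4 of the 6 TATA boxes of genes not called. The GC box contrast between called genes and genes not called thus rests largely on this cluster, and the other contrasts in part. Outside it, every gene not called but MMP21 and MMP26 held a GC box. Every called gene but ADAMTS6 and ADAMTSL1 did too. These are counts of letters in a fixed window, given with no test, and G and C content and GC boxes are not separate measures.

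The 3 procollagen N-propeptidases, ADAMTS2, ADAMTS3 and ADAMTS14, which remove the amino-terminal propeptides of fibrillar procollagens, were all called lower. ADAMTS2 had 0.36, -0.21, 0.00 and 0.40 in arrays labelled CFC1, against 2.89, 2.83, 2.85 and 2.98 in mock arrays. Its difference was -2.75 (SE 0.14, adjusted p in limma 1.22e-06), and its 2 probes gave -2.92 and -2.58. ADAMTS14 had 0.11, 0.15, 0.02 and -0.24 in arrays labelled CFC1, against 2.52, 2.62, 2.54 and 2.53 in mock arrays, a difference of -2.54 (SE 0.0867). For both genes every array labelled CFC1 lay near the baseline and every mock array more than 2 units above all of them. ADAMTS3 had -1.26, -1.30, -1.20 and -1.03 in arrays labelled CFC1, against 0.066, -0.13, -0.069 and -0.19 in mock arrays, a difference of -1.11 (SE 0.0781). Here the mock arrays lay near the baseline and the arrays labelled CFC1 below it, again with no overlap. After quantile normalization the difference of ADAMTS3 was -1.88.

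Among 7 proteoglycan-cleaving members, which cut aggrecan and versican, ADAMTS5 was called higher, ADAMTS4 and ADAMTS9 lower, and ADAMTS1, ADAMTS8, ADAMTS15 and ADAMTS20 were not called. ADAMTS5, the main aggrecanase of mouse cartilage, had 2.72, 2.74, 2.79 and 2.74 in arrays labelled CFC1, against 0.00, 0.24, 0.076 and 0.048 in mock arrays. Its difference of 2.66 (SE 0.0562, adjusted p in limma 1.37e-08) was the largest rise of the 51 genes, and its values lay close together within each group. ADAMTS4, the other aggrecanase of its pair, had -0.22, 0.18, -0.25 and 0.17 in arrays labelled CFC1, against 1.88, 1.78, 1.83 and 2.01 in mock arrays, a difference of -1.90 (SE 0.121). The groups of both aggrecanases were far apart, in opposite directions.

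ADAMTS9, a versican-cleaving protease that also acts in the secretory pathway, had -2.35, -2.33, -2.36 and -2.26 in arrays labelled CFC1, against 0.066, 0.093, 0.08 and 0.053 in mock arrays. The difference was -2.40 (SE 0.034), and it was -4.26 after quantile normalization. ADAMTS1 lies next to ADAMTS5 on chromosome 21 among the measured genes, and its difference was -0.026 (95% interval -0.15 to 0.093), with all 8 arrays between 0.059 and 0.23. The neighbours thus had intervals that lay far apart. ADAMTS8 and ADAMTS15 are likewise neighbours on chromosome 11. ADAMTS8 had -0.086, 0.00, 0.30 and 1.41 in arrays labelled CFC1, against 0.44, 0.30, 0.75 and 0.44 in mock arrays; its difference of -0.076 was not called, but without CFC1 replicate 4 it was -0.41 with an adjusted p in limma of 0.0422. ADAMTS15 rested on 1 array: mock replicate 4 stood at 2.81 and the other 7 arrays between -0.38 and 0.085, so its difference of -0.73 (95% interval -2.34 to 0.89) was not called.

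**Figure D2:**
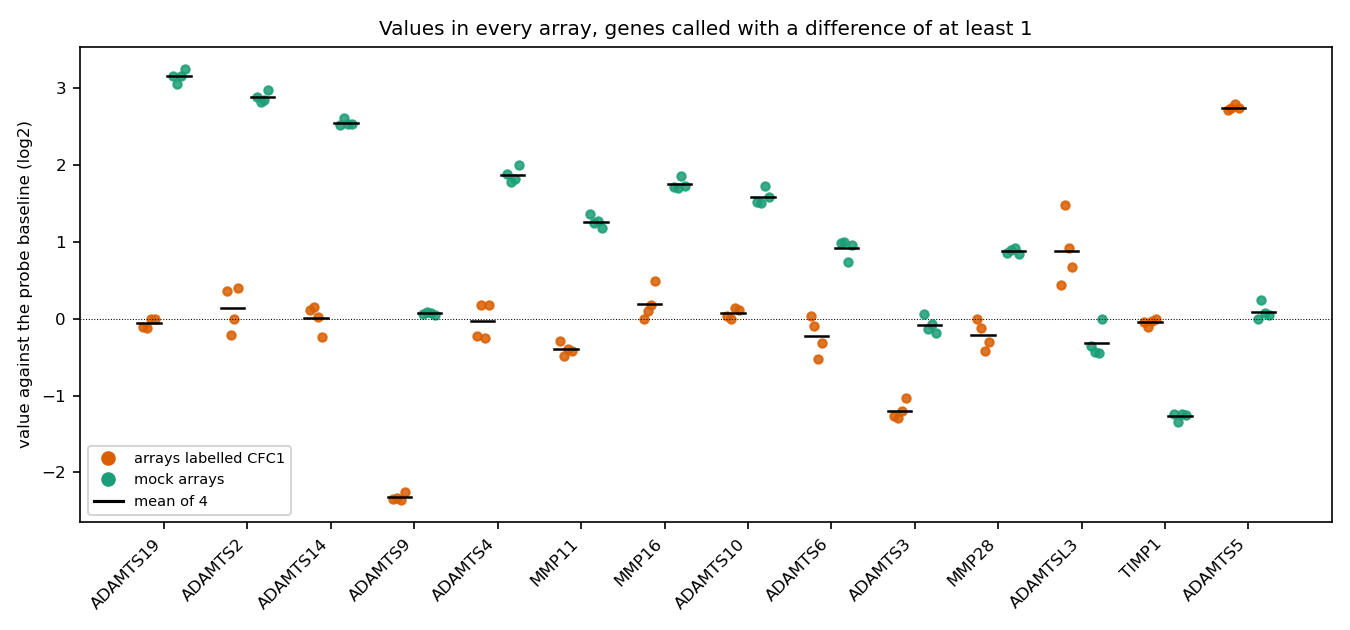
Value of every array (y axis, log2 against the probe baseline) for the 14 genes called with a difference of at least 1, arrays labelled CFC1 left of mock arrays, with a bar at each mean of 4. The groups of each gene do not overlap, which choosing genes by a called difference favours and which holds for 56.5% of all genes. In 9 of the 11 lower genes the mock mean lies farther from the baseline, and for ADAMTS9 and ADAMTS3 the mean of arrays labelled CFC1 does.

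ADAMTS19, a protease with no well established substrate that is known from inherited heart valve disease, had the largest fall. Its values were -0.10, -0.12, 0.00 and 0.00026 in arrays labelled CFC1, against 3.16, 3.06, 3.16 and 3.26 in mock arrays. The difference was -3.22 (95% interval -3.34 to -3.09, adjusted p in limma 4.79e-09), a 9.29-fold lower value if the logarithm is binary. Its measured neighbours on chromosome 5, ISOC1 and MINAR2, differed by -0.44 and -2.04. ADAMTS10 and ADAMTS6, related proteases that act on fibrillin microfibrils, were both called lower. ADAMTS10 had 0.034, 0.00, 0.14 and 0.11 in arrays labelled CFC1, against 1.52, 1.502, 1.73 and 1.59 in mock arrays, a difference of -1.51 (SE 0.0621; -1.01 after quantile normalization). ADAMTS6 had 0.039, -0.088, -0.53 and -0.32 in arrays labelled CFC1, against 0.99, 1.01, 0.74 and 0.96 in mock arrays, a difference of -1.15 (SE 0.13). Its mean hides a split between 3 probes, given below.

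The remaining ADAMTS genes differed by less than 1. ADAMTS13, which cleaves von Willebrand factor, had 0.14, -0.055, -0.21 and -0.52 in arrays labelled CFC1, against -0.70, -0.80, -0.59 and -0.66 in mock arrays. Its difference was 0.53 (adjusted p in limma 0.0102), and the call was lost after quantile normalization (0.41, adjusted p in limma 0.125). In the fit over all probes its 2 probes gave 0.77 and 0.29, and only the first was called. ADAMTS17 differed by -0.37 (adjusted p in limma 0.0124), but the call was lost under quantile normalization, centring on array medians, the E1A spots and the replicate block. ADAMTS7 and ADAMTS12, which cleave cartilage oligomeric matrix protein, differed by -0.074 and -0.18 and were not called. RefSeq also lists pseudogenes of ADAMTS7, so its 4 probes may not be specific. ADAMTS16 (-0.28), ADAMTS18 (-0.14) and ADAMTS20 (0.27) were not called either.

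Of the ADAMTS-like genes, ADAMTSL3, whose protein is a matrix glycoprotein, had 0.44, 1.49, 0.92 and 0.67 in arrays labelled CFC1, against -0.36, -0.44, -0.44 and 0.00 in mock arrays. The difference was 1.19 (SE 0.227, adjusted p in limma 0.00245), and the lowest array labelled CFC1 was above the highest mock array. ADAMTSL2, which binds fibrillin and latent TGF-beta binding protein, differed by -0.55 with 3 probes between -0.62 and -0.45, and by -0.21 after quantile normalization. ADAMTSL1 differed by -0.74, with 4 probes from -1.26 to -0.36 of which 1 passed in the fit over all probes, where 42.1% of 50599 probes passed. ADAMTSL4 (0.14) and ADAMTSL5 (0.075) were not called.

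None of the 23 MMP genes was called higher by its mean, although 1 probe of MMP25 was. Of the 23 differences, 22 were below 0, as were 12020 of 21524 over all genes. The 22 include 6 genes that followed the negative control spots, which themselves differed by -0.11 and -0.15, and MMP1, at -0.045, which stood at 0.057 with the E1A spots and 0.018 after quantile normalization. The largest fall was that of MMP11, stromelysin-3, which furin activates before it leaves the cell. MMP11 had -0.29, -0.49, -0.39 and -0.41 in arrays labelled CFC1, against 1.36, 1.25, 1.27 and 1.18 in mock arrays, a difference of -1.66 (SE 0.0561, adjusted p in limma 1.44e-07). The other stromelysins, MMP3 and MMP10, were not called.

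The membrane-type MMPs sit on the cell surface through a transmembrane segment or a lipid anchor, and 4 of 6 were called lower. MMP16, of the transmembrane kind, had 0.00, 0.10, 0.18 and 0.50 in arrays labelled CFC1, against 1.72, 1.71, 1.86 and 1.73 in mock arrays, a difference of -1.56 (SE 0.106; -0.98 after quantile normalization). MMP17, of the lipid-anchored kind, had 0.00, 0.15, -0.19 and 0.12 in arrays labelled CFC1, against 0.87, 1.12, 1.02 and 0.97 in mock arrays, a difference of -0.97 (SE 0.0875; -0.59 after quantile normalization). MMP15 differed by -0.41 (adjusted p in limma 0.000893). MMP24, known for its expression in the nervous system, differed by -0.20, close to the -0.11 and -0.15 of the negative control spots. The difference of those spots rests largely on mock replicate 4, where MMP24 had 0.25, against 0.17, 0.17 and 0.30 in the other mock arrays. The call of MMP24 was lost under quantile normalization (-0.015), centring on array medians (-0.16) and the E1A spots (-0.096). MMP14, the activator of the MMP2 precursor, had 0.00, -1.05, -0.33 and 0.24 in arrays labelled CFC1, against 0.23, 0.21, 0.32 and -0.25 in mock arrays. Its groups overlapped and its difference of -0.41 was not called (95% interval -1.07 to 0.25).

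Both gelatinases were called lower, by less than 1. MMP2 had -0.59, -0.47, -0.66 and -0.53 in arrays labelled CFC1, against 0.26, 0.31, 0.35 and 0.22 in mock arrays, a difference of -0.85 (SE 0.0527, adjusted p in limma 3.78e-06). MMP9 had 0.24, 0.24, 0.00 and 0.052 in arrays labelled CFC1, against 0.56, 0.56, 0.46 and 0.49 in mock arrays, a difference of -0.38 (SE 0.0666). The groups of both genes did not overlap, but after quantile normalization MMP9 stood at -0.081 with an adjusted p of 0.486. MMP28, epilysin, had 0.00, -0.12, -0.42 and -0.31 in arrays labelled CFC1, against 0.85, 0.89, 0.92 and 0.85 in mock arrays, a difference of -1.09 (SE 0.09). MMP23B differed by -0.79 (SE 0.0756; -0.35 after quantile normalization); RefSeq lists a close copy, the pseudogene MMP23A, so its probe may not be specific. MMP19 differed by -0.51 as a mean of unlike probes.

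The 9 MMP genes of the chromosome 11 cluster, in the order MMP7, MMP20, MMP27, MMP8, MMP10, MMP1, MMP3, MMP12 and MMP13, gave 0 calls. Among the measured genes, the pseudogene WTAPP1 lies between MMP10 and MMP1, and its difference of -0.97 (SE 0.575) was not called. They include the collagenases MMP1, MMP8 and MMP13, matrilysin (MMP7), the stromelysins MMP3 and MMP10 and macrophage elastase (MMP12). The probes of MMP3, MMP7, MMP10, MMP12, MMP13 and MMP27 traced the negative control spots array by array. MMP3 had -0.18, -0.40, -0.37 and -0.022 in arrays labelled CFC1, against -0.14, -0.18, -0.26 and 0.22 in mock arrays. The DarkCorner spot had -0.15, -0.40, -0.30 and -0.008 in arrays labelled CFC1, against -0.17, -0.21, -0.23 and 0.21 in mock arrays. A gap of at most 0.25 to the mean of both control spots in every array, a limit set after the values were seen, held for 7 of the 51 genes: the 6 named and ADAMTS18. The farthest of them was MMP10 with a gap of 0.15, and the nearest gene outside was MMP1 with 0.26. By probes, 7 of 73 (9.59%) met the limit, against 13.1% of all probes. The limit by itself leaves little room for a group difference: 2.03% of all probes that met it were called, against 42.1% of all probes. That none of these 7 genes was called is therefore no result about them. The values give no level, so a transcript near or below background was not told apart from an absent one.

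**Figure D3:**
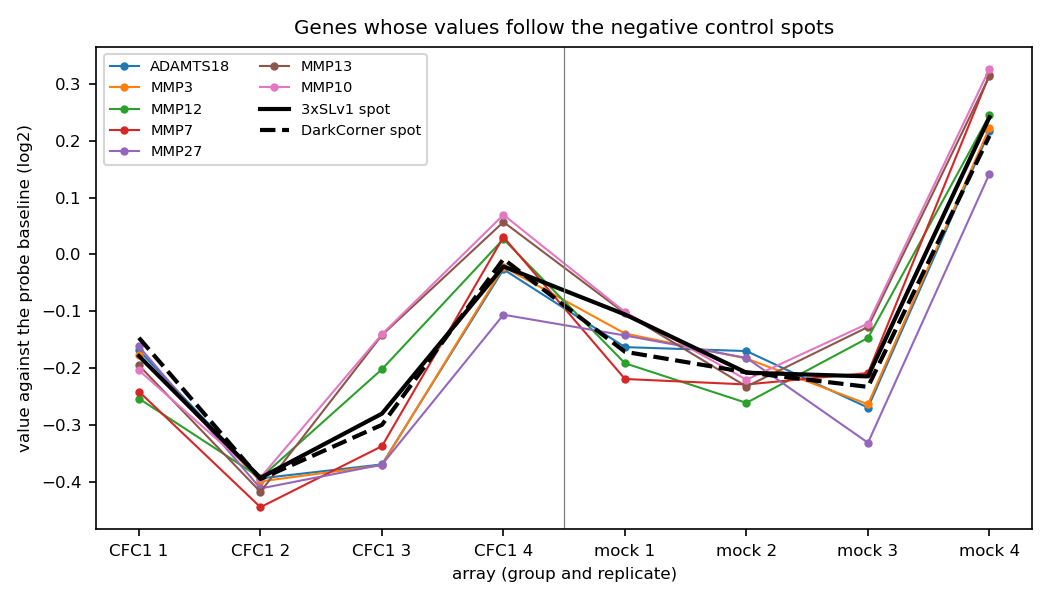
Values (y axis, log2 against the probe baseline) of the 7 genes that follow the negative control spots (coloured lines) and of the 3xSLv1 and DarkCorner spots (black lines) over the 8 arrays (x axis), arrays labelled CFC1 left of mock arrays. All lines dip at CFC1 replicate 2 and peak at mock replicate 4, with MMP10 at most 0.15 from the control mean.

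The other members of that cluster were not near the control profile on every array. MMP8 had -0.26, -0.46, 0.73 and -0.11 in arrays labelled CFC1, against 1.05, -0.27, 2.73 and 0.17 in mock arrays, so its -0.94 lay within the spread (95% interval -2.47 to 0.58). MMP20 differed by -0.30 and was not called, but passed without mock replicate 3 (-0.40, adjusted p in limma 0.0372). MMP26, a small matrilysin encoded elsewhere on chromosome 11, stood at 3.32 in mock replicate 4 and between -0.35 and -0.021 in the other 7 arrays, so its -0.92 was not called. MMP21 (-0.53) had a wide spread and was not called.

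Genes on either side of the chromosome 11 cluster were described as a list. Of 11 listed genes of that stretch, 7 were called higher and 0 lower (63.6%, against 57.9% of all genes), with a median of 0.94. YAP1, a transcriptional co-activator of the Hippo pathway, was higher by 5.90 (SE 0.136), CEP126, a centrosomal protein, by 3.49, DYNC2H1, a cilium motor, by 2.71 and DCUN1D5, next to MMP13, by 1.67. BIRC3, PDGFD, TRPC6 and ANGPTL5 were not called. The called share lay near that of all genes, but all calls went in 1 direction. Of the list, 63.6% were higher and 0% lower, against 29.7% and 28.2% of all genes. A called difference of at least 1 was found for 45.5%, against 18.7% of all genes. The 6 MMP genes that followed the negative control spots were picked by a limit that leaves little room for a difference. The neighbours and the MMP genes are therefore not compared.

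Of the inhibitors, TIMP1, TIMP2 and TIMP3 were called higher and TIMP4 was not called. TIMP1 had -0.043, -0.11, -0.03 and 0.00 in arrays labelled CFC1, against -1.24, -1.34, -1.24 and -1.26 in mock arrays. Its difference was 1.22 (95% interval 1.13 to 1.32, adjusted p in limma 1.27e-07). TIMP2, which also helps MMP14 to activate MMP2, had 0.44, 0.38, 0.57 and 0.52 in arrays labelled CFC1, against -0.22, -0.25, -0.13 and -0.13 in mock arrays, a difference of 0.66 (SE 0.0541).

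TIMP3, which binds the matrix and inhibits ADAMTS4 and ADAMTS5, had -0.011, -0.091, -0.058 and 0.00 in arrays labelled CFC1, against -0.56, -0.63, -0.57 and -0.67 in mock arrays, a difference of 0.57 (SE 0.0406). In each of these 3 genes the 4 arrays labelled CFC1 lay above the 4 mock arrays. TIMP4 had -0.26, -0.38, -0.23 and 0.012 in arrays labelled CFC1, against 0.73, -0.25, -0.17 and 0.24 in mock arrays. Its difference of -0.35 (95% interval -0.86 to 0.17) was within the spread. TIMP1, TIMP3 and TIMP4 lie within or beside the synapsin genes, and the measured neighbours SYN1, SYN3 and SYN2 differed by -0.52, 0.062 and -0.90. The 3 called TIMPs, each with 1 probe, kept their call and direction under all 17 alternatives. Among these, reading the values as natural logarithms scales all values alike and could not change a call.

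Of the 51 genes, 15 had more than 1 probe, and in 5 the probes lay more than 1 unit apart. For ADAMTS6, 1 probe had -0.46, -0.68, -0.45 and -0.24 in arrays labelled CFC1, against 2.01, 1.79, 1.96 and 2.14 in mock arrays, a difference of -2.43 (adjusted p in limma 1.26e-06). Its other probes gave -0.78 and -0.23 and were not called, so the call of the gene rests on 1 of 3 probes. For ADAMTS4 both probes were called, at -2.40 and -1.40.

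For ADAMTSL3 the probes gave 1.84 and 0.54, and only the first was called. For MMP19 the probes gave -1.10 and 0.085, and only the first was called. For MMP25, a lipid-anchored MMP of leukocytes, 1 probe had 0.60, 0.71, 0.54 and 0.52 in arrays labelled CFC1, against 0.00, -0.12, -0.37 and -0.63 in mock arrays, a called difference of 0.87 (adjusted p in limma 0.0013). The other MMP25 probe gave -0.68 and was not called, so the mean of 0.093 describes neither. No gene had probes called in opposite directions. Which transcript each probe detects was not determined.

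**Figure D4:**
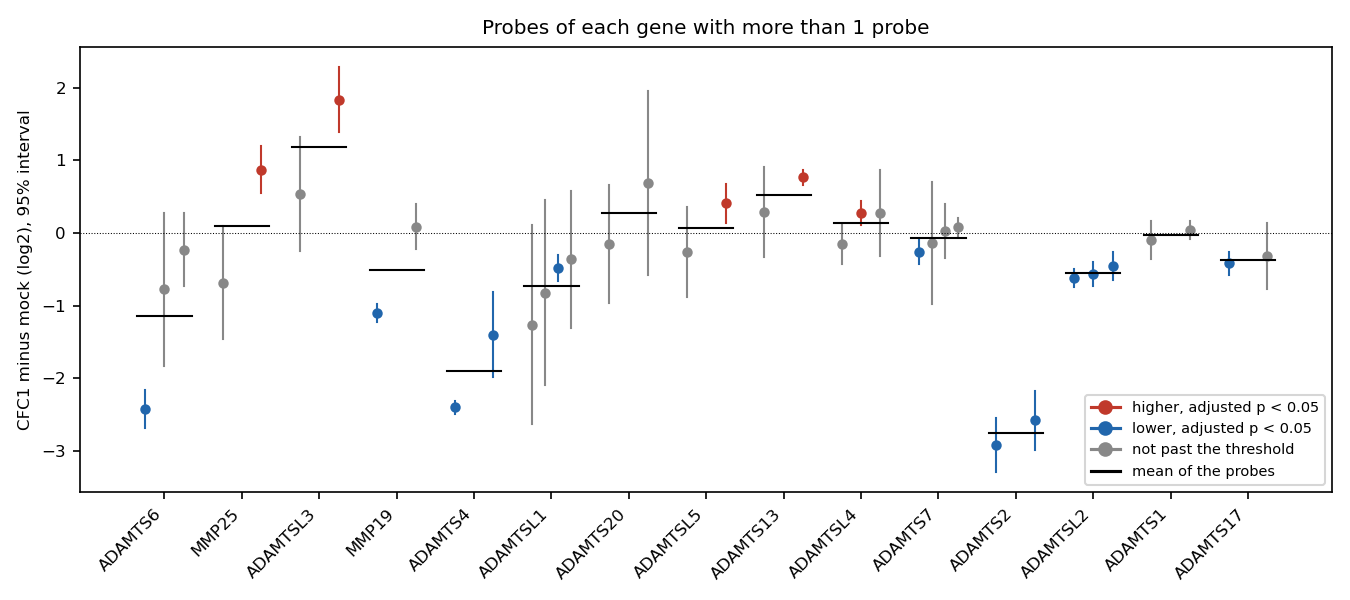
Difference of every probe (y axis, log2, arrays labelled CFC1 minus mock arrays) with its 95% interval from the fit over all probes, for the 15 genes with more than 1 probe (x axis), ordered by the distance between their probes. Red and blue mark probes called higher and lower, grey probes not called and black bars the mean of a gene; ADAMTS6 spans -2.43 to -0.23 and MMP25 spans -0.68 to 0.87.

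Genes that act on or with these proteases were described by lists, chosen with earlier results of these data known. Of 19 genes of MMP activation and pericellular proteolysis, 1 was higher and 6 lower (36.8% called, median -0.16). SERPINI1, an inhibitor of tissue plasminogen activator, differed by -2.40, the precursor-cleaving convertases PCSK5 and PCSK6 by -1.35 and -0.64, and the lysosomal protease CTSB by -0.73. The 3 probes of PCSK5 ran from -1.94 to -0.62. With the replicate number as a block 11 of the 19 were called. Of 7 astacin and procollagen-processing genes, 3 were lower (42.9%, median -0.17). PCOLCE, an enhancer of procollagen C-proteinase, differed by -1.11, the protease TLL1 by -0.63 and PCOLCE2 by -0.17. The calls of TLL1 and PCOLCE2 were lost under quantile normalization, centring on array medians and the E1A spots, which left 1 of the 7, and that of TLL1 also without CFC1 replicate 2 (-0.51), mock replicate 1 (-0.52) or mock replicate 2 (-0.54).

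Matrix genes and matrix-modifying enzymes were called in both directions. Of 15 lectican proteoglycan and hyaluronan matrix genes, 4 were higher and 3 lower (46.7%, median -0.081). TNC, tenascin-C, was higher by 2.59, ACAN, aggrecan, by 1.62 with probes at 0.52 and 2.72, and the link protein HAPLN3 by 1.39, while HAS2, a hyaluronan synthase, differed by -2.47. Of 17 microfibril and latent TGF-beta binding genes, 4 were higher and 9 lower (76.5%, median -0.17). The fibrillins went apart, FBN2 at 4.93 (SE 0.243) and FBN1 at -3.67 (SE 0.35), and the microfibril genes EFEMP2 and MFAP2 differed by 3.21 and -2.73. Of 12 enzymes of matrix crosslinking or collagen hydroxylation, 8 were higher and 3 lower (91.7%, median 0.41). The prolyl hydroxylase subunit P4HA2 was higher by 3.96 with probes at 3.21 and 4.72, the lysyl oxidases LOXL4 and LOXL2 by 3.48 and 2.98, and the lysyl hydroxylase PLOD1 differed by -1.07.

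Of 18 reported regulators of MMP transcription, 8 were higher and 7 lower (83.3%, median -0.053). ETV4, an ETS factor, was higher by 3.64, and the AP-1 subunits FOSL1 and FOSB by 2.09 and 2.02, while the ETS factor ETV1 differed by -2.35, with 4 probes from -3.12 to -1.26. The AP-1 subunits went both ways: FOS, JUN and FOSL2 were called lower (-1.14, -0.59 and -0.48). JUNB and JUND were called higher (0.35 and 0.56). All these shares stand beside 57.9% called and a median of -0.086 over all genes.

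Cell type markers were described by lists too, beside 57.9% of all genes called and a median of -0.086. Of 10 neuroblastoma lineage markers, 1 was higher and 7 lower (80.0%, median -0.51). The largest changes were STMN2 at -3.92, CHGB at -2.48, ISL1 at -2.18 and CHGA at -1.14. The 1 higher was MYCN at 0.16, and PHOX2A (0.017) and TH (0.073) were not called. Of 12 fibroblast and mural markers, 1 was higher and 9 lower (83.3%, median -0.76), with RGS5 at -3.83, PDGFRA at -2.78, COL3A1 at -1.88 and COL1A1 at -1.44. Of 8 Schwann and glial markers, 1 was higher and 4 lower (62.5%, median -0.43), with EGR2 at 2.94, S100B at -1.35 (probes at -2.55 and -0.15), FABP7 at -1.17 and GFAP at -0.90. Of 9 immune and endothelial markers, 1 was higher and 3 lower (44.4%, median -0.14). CD14 differed by 1.16, KDR by -3.08, TEK by -2.89 and CD68 by -0.42. The Schwann and glial share lay near that of all genes, and the immune and endothelial share below it. The calls of CD68 and FABP7 were lost without most single arrays (-0.44 to -0.34 and -1.23 to -0.96). The values give no level, so the label of the line could not be checked against levels, and the part of these markers in the protease differences was not tested. In bulk RNA, fewer cells of a type and less RNA per cell cannot be told apart.

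**Figure D5:**
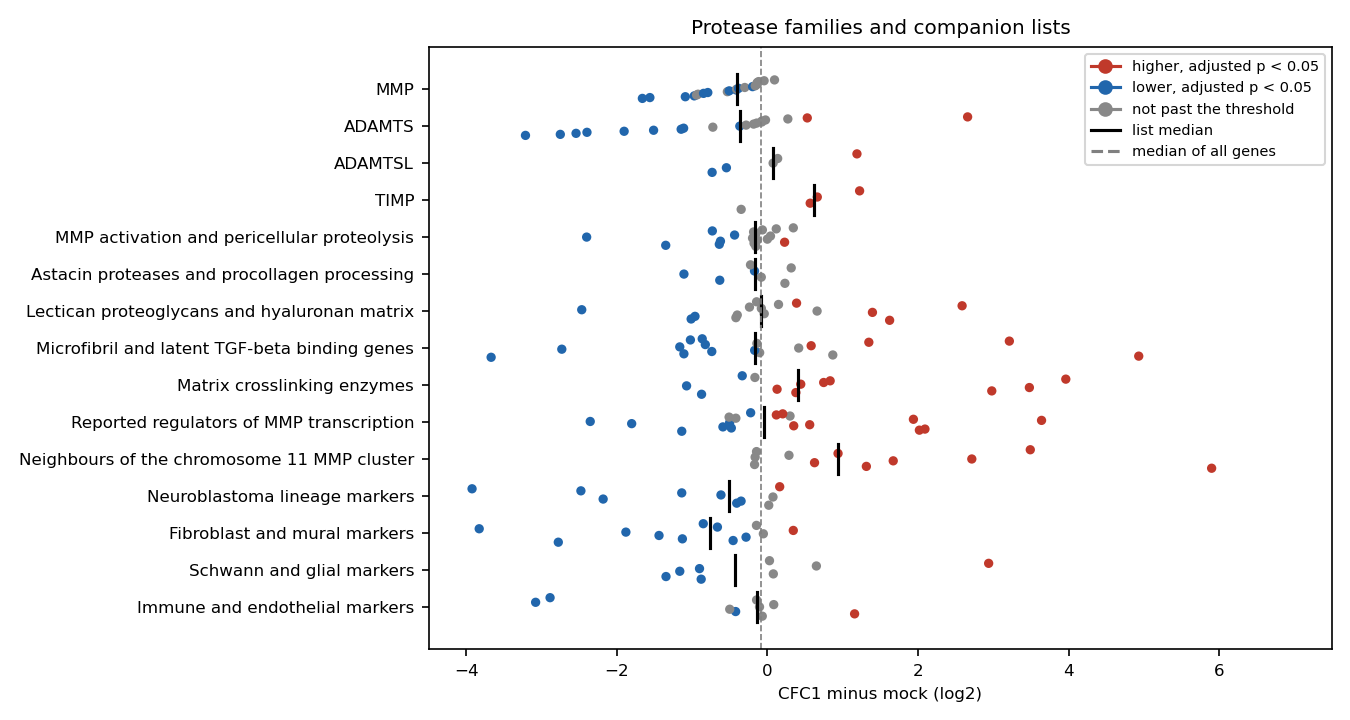
Difference of every measured gene (x axis, log2, arrays labelled CFC1 minus mock arrays) in the 4 protease and inhibitor families and the 11 companion lists, with a black bar at each median and a dashed line at the median of all genes (-0.086). Red and blue mark genes called higher and lower. MMP genes of all chromosomes lie between -1.66 and 0.093. The listed neighbours of the chromosome 11 cluster reach 5.90 and are not compared with the MMP genes.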

How the data were processed

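The authors deposited 1 table of log values for 8 arrays, whose base the labels do not state. The deposited values were read as log2; how spots were read, corrected, scaled and set to a baseline is not stated in the labels. No background or saturation flags were available, so no probe was filtered and no bound is given; precision is set by 4 arrays per group. Without 140 control spots there were 50599 probes. The platform annotation names 1 gene for 31993 of them, several for 0, and leaves 18606 unnamed. Symbols were updated with RefSeq (GRCh38.p14), by accession for 70 of the 73 probes described and by symbol for 3. Chromosomes, gene order and promoter positions come from RefSeq alone. Probes of a gene were averaged, giving 21524 genes, and fitted with limma 3.58.1 in R 4.3.3 (lmFit, eBayes, 8 arrays, two-sided, no block). The fit was tested on simulated data. Tables were made with Python 3.11.15, numpy 2.4.6 and pandas 2.3.3. Slides and scan times were not given.

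The members and lists were chosen with earlier results of these data known. Values are given for each array of members called with a difference of at least 1, of all TIMPs, and of some others chosen after their values were seen; lists name up to 4 called genes with the largest change. Genes are neighbours by order among the measured genes. Alternatives were quantile normalization, median centring of arrays, scaling to the E1A control spots, a block for the replicate number, a trend, array weights, unmoderated variances, all probes, natural logarithms and leaving out each array. Quantile normalization was run on the deposited values, each set against the baseline of its probe. It therefore made the distributions of relative values alike, not those of signal, and can stretch or shrink differences.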

Additional observations from a re-analysis of the deposited data

Results flagged for a closer look

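Within a group of 4 arrays, 6 of 102 groups had 1 array far from the other 3 by Dixon's ratio, where chance gives about 1 in 20. In 4 of them the array was mock replicate 4. It stood at 3.32 for MMP26 (others -0.25 to -0.021), at 2.81 for ADAMTS15 (others -0.27 to -0.13), at 0.33 for MMP1 (others -0.39 to -0.30) and at 0.32 for MMP7 (others -0.23 to -0.21). The negative control spots were also highest on that array, at 0.24 and 0.21. ADAMTS6 was lowest in mock replicate 3, at 0.74 (others 0.96 to 1.01). ADAMTS7 was highest in CFC1 replicate 3, at 0.45 (others -0.025 to 0.025).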

How the results depend on the processing

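Of the 27 called genes, 23 kept their call and direction under the 16 alternatives fitted on gene means. The exceptions were ADAMTS13, ADAMTS17, MMP9 and MMP24, and no called gene changed direction. Among the 16, reading the values as natural logarithms could not change a call, as it scales all values alike. The count of called genes ran from 24 to 31 over 9 alternatives and from 27 to 28 over the 8 arrays left out in turn. The fit over all probes calls a gene where any probe passes, which favours a call: of 9 called genes with several probes, 3 had every probe called and 6 had 1. There all 5 ADAMTSL genes had a called probe, against 3 in the fit over genes. With the replicate number as a block, 28 genes of the 51 were called, and 11 genes of MMP activation against 7. Same-numbered arrays correlated by 0.138, 0.199, 0.0741 and 0.19 in their deviations. Each of the 4 arrays labelled CFC1 correlated best with the mock array of its own number. The labels do not say whether the numbers pair the samples, and the main fit used no block, so a shared replicate effect may remain in it. ADAMTS12 and ADAMTS16 passed under the block, and ADAMTS17 did not (adjusted p 0.0561). The astacin list kept 1 call under quantile normalization, centring on array medians and the E1A spots. The E1A spots moved the median of all genes by 0.102. The transduced gene CFC1 lost its call under the block (-0.80, adjusted p 0.0761), quantile normalization (-0.74), median centring (-0.75), the E1A spots (-0.69), unmoderated variances (-0.80), all probes (-0.80) and 5 single arrays left out (over all 8, -0.94 to -0.57). The cause of these changes was not tested. Array scans without flags limit what can be said of dim probes.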
